A study of Homo sapiens with 6 samples.

Results

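The genes of the cytosolic ribosomal proteins were followed in Caco-2 cells during coculture with THP-1 cells. Members were the genes with a probe set annotated to exactly 1 symbol of the form RPL or RPS plus a number, with RPLP1 and RPLP2 of the stalk, and without pseudogenes and the RPS6K kinases. Symbols with a suffix of A, L, X or Y and a final digit, such as RPL22L1, were counted in. This gave 61 of the 19775 genes with a probe set of their own, 39 of the large and 22 of the small subunit, read by 122 probe sets. Each gene was read from its brightest probe set, by mean log2 signal over the 6 times. Of the 87 coding genes of this form in RefSeq, 26 had no probe set of a single symbol, among them RPLP0, RPSA, RPL5, RPL13A, RPL23 and RPS27A, and are not analysed here as members.

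Caco-2, from a human colorectal adenocarcinoma, forms a polarised, enterocyte-like monolayer, and THP-1 comes from a human monocytic leukaemia. After 14 days of growth on a porous support, Caco-2 cells were placed above THP-1 cells that had been treated with phorbol myristate acetate for 4 days, which makes them macrophage-like. Caco-2 RNA was profiled on 1 array each at 0, 1, 3, 6, 24 and 48 h of coculture, so that all groups share the cell line, the culture age before coculture and the support, and differ in time with THP-1 cells. All values are of single arrays, no replicate spread can be given, no test was made, and time in coculture and time in culture cannot be told apart.

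The cytosolic ribosome is built of a small subunit, which decodes the mRNA, and a large subunit, which joins amino acids. Each is made of ribosomal RNA and a set of proteins that are needed in equal numbers, and unpaired ribosomal proteins are degraded. In mammals the mRNAs of these proteins begin with a C followed by an unbroken run of pyrimidines, the 5′ terminal oligopyrimidine (TOP) tract, through which growth signalling by mTOR and the binding protein LARP1 control their translation more than their level. Several members have a paralog that can take their place in the ribosome, and some bind partners outside it.

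The start of the transcript is shown for members the results turn on, because the tract is what the family shares in sequence although the rule used names only. RefSeq promoter sequences (build GRCh38.p14) were matched for 53 of the 61 members, and those of RPL3L, RPL7, RPL8, RPL23A, RPL30, RPL37, RPL39L and RPS15A were not. Each line runs 5′ to 3′ on the gene's strand from 40 bases before the annotated start to base 20 of the transcript. Capitals mark the longest run of C or T that reached to within 5 bases of the start, where it was 6 bases or longer. RPS19, RPS23 and RPL39 are shown as bright members with small spans on the probe set used, RPS24, RPL31 and RPS25 as members with uneven ones, and the others as paralogs and their partners.
RPS19 (chr19:41860215-41860274, plus strand): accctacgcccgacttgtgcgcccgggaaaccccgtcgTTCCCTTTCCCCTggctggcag
RPS23 (chr5:82278335-82278394, minus strand): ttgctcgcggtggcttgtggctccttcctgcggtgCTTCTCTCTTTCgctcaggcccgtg
RPL39 (chrX:119791611-119791670, minus strand): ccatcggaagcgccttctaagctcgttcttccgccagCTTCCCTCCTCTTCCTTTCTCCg
RPS24 (chr10:78033823-78033882, plus strand): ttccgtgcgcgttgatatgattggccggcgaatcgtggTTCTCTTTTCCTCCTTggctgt
RPL31 (chr2:101002249-101002308, plus strand): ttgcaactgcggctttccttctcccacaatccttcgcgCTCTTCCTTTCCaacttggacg
RPS25 (chr11:119018324-119018383, minus strand): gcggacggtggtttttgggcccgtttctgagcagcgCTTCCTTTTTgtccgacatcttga
RPS27 (chr1:153990722-153990781, plus strand): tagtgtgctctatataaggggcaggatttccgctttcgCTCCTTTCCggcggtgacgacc
RPS27L (chr15:63157458-63157517, minus strand): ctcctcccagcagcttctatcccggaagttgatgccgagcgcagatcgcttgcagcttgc
RPL22 (chr1:6199576-6199635, minus strand): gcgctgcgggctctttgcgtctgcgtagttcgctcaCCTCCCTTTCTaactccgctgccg
RPL22L1 (chr3:170870176-170870235, minus strand): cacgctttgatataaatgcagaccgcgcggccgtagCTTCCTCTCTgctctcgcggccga
RPL36A (chrX:101390971-101391030, plus strand): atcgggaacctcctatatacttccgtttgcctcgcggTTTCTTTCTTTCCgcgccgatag
RPL36AL (chr14:49620607-49620666, minus strand): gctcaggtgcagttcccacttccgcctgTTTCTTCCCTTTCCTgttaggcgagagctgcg
RPL7L1 (chr6:42879576-42879635, plus strand): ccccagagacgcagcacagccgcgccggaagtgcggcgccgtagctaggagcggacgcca
RPL26L1 (chr5:172958689-172958748, plus strand): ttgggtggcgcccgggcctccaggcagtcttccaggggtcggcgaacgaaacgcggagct

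A run of at least 8 pyrimidines at the start was present in 39 of the 53 members, or 73.6%, against 11.4% of 15842 coding promoters. Its median length was 11 bases in members and 4 in all coding promoters, and it was longest, at 22 bases, in RPL39. Of the 7 members that are paralogs by name or Y-linked, 3 carried such a run, against 36 of the other 46. RPS27L, RPL7L1, RPL26L1 and RPL10L had runs of 2 bases in this window. Over the whole 300 bases (250 before the start and 50 after it), CCGGAAG, a core of ETS factor sites, was found on either strand in 19 of 53 members, or 35.8%, against 14.2% of coding promoters and 41.8% of the promoters of mitochondrial ribosomal proteins. TATAAA was found on either strand in 9.43% of members and 9.63% of coding promoters. The CCGGAAG and TATAAA matches describe letters in the window and were not tied to the measured signals. Genes of mitochondrial ribosomal proteins had the pyrimidine run in 6 of 67 promoters, or 8.96%.

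Median intensity over all probe sets was 15.3 to 16.7 on the 6 arrays. All 12 epithelial markers examined, such as EPCAM and CDH17, were above the floor of 16.2 on each array, but not all kept their signal. At 48 h, 4 of them were lower and 1 was higher than at 0 h by the size rule given below. SI, FABP1 and APOA1 were 4.50-, 4.37- and 2.08-fold lower at that time, and KRT20 was 1.99-fold higher. Of 14 macrophage markers, 12 had a probe set of their own, with 6 to 8 above the floor. Their summed intensity was 889 at 0 h and 550 to 752 during coculture, against 25567 to 28336 for the epithelial markers over the 6 arrays. PTPRC and SPI1, which define leukocytes and myeloid cells, were under the floor on each array, while CD14, ITGAM, LYZ, AIF1 and LAPTM5 were above it on all 6. LYZ was 1.67-fold higher and AIF1 8.37-fold lower at 48 h than at 0 h. The part of macrophage RNA in the values of the members was not tested. The ratio of 3′ to 5′ signal of ACTB, a measure of RNA integrity and labelling, was 51.2, 27.7, 22.9, 17.99, 27.9 and 37.0 at 0, 1, 3, 6, 24 and 48 h. That of GAPDH varied less, with 4.69, 3.81, 4.29, 3.54, 4.72 and 4.23 at these times. The ACTB ratio was thus highest on the 0 h array, the baseline of the log2 ratios below. The part of RNA integrity and labelling in them was not tested.

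As a group the ribosomal protein genes stayed close to their 0 h signal, on the brightest probe set of each. The 60 members above the floor on 1 or more arrays were used, and their median log2 ratio to the 0 h array was -0.09, -0.022, -0.08, 0.016 and -0.024 at 1, 3, 6, 24 and 48 h. Over the 14623 measured genes it was 0, -0.017, -0.04, 0 and -0.0069. The quartiles of the members at 6 h were -0.21 and 0.0019, while those of all measured genes were -0.46 and 0.23. In bulk RNA, fewer cells of a type and less RNA per cell cannot be told apart, and signals scaled per array do not show the amount of ribosomal protein mRNA per cell. All 5 comparisons share the single 0 h array.

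**Figure D1:**
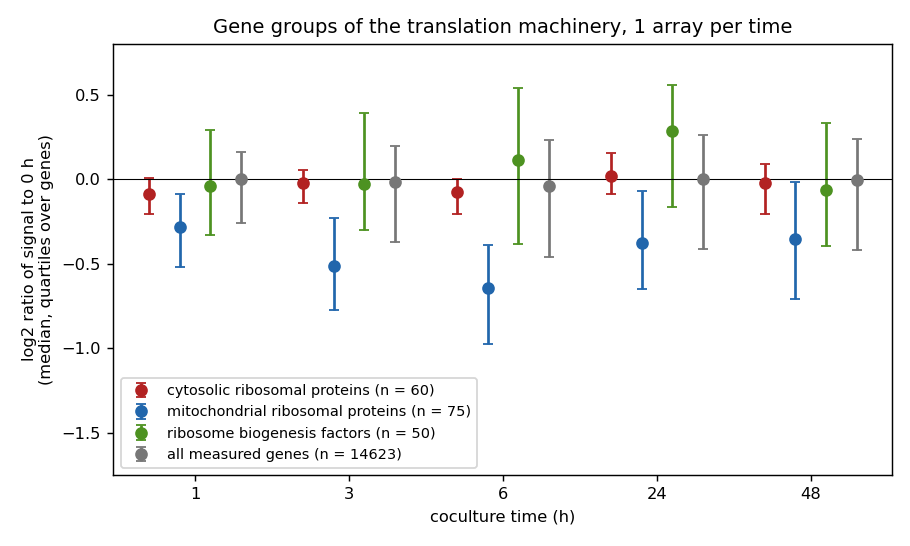
Median log2 ratio of signal to the 0 h array at each coculture time, with bars from the first to the third quartile over genes, for cytosolic ribosomal protein genes, mitochondrial ribosomal protein genes, ribosome biogenesis factors and all measured genes. The cytosolic medians lie between -0.09 and 0.016 at all 5 times, while the mitochondrial ones run from -0.28 to -0.64, each time on 1 array.

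Fewer members than genes at large passed a size rule of 1.5-fold against 0 h with the brighter array above the floor. This holds for the list as a whole, and not at each time for its dimmer members, given below. At 1, 3, 6, 24 and 48 h, 0, 3, 4, 3 and 3 of the 60 members were higher, the largest share being 6.67% at 6 h. Of all measured genes 6.53%, 9.55%, 11.3%, 12% and 11.2% were higher at these times. Lower were 2, 4, 5, 2 and 2 members, at most 8.33%, where the measured genes had 8.06%, 13.6%, 19.1%, 17.2% and 17.5%. Past 2-fold, 0, 0, 2, 1 and 0 members were higher, beside 1.9%, 3.1%, 4.23%, 3.95% and 3.82% of measured genes. Past 2-fold, 0, 1, 2, 0 and 0 were lower, beside 1.44%, 3.52%, 6.45%, 6.14% and 6.14%. Past a log2 ratio of 0.32 in size, 4, 5, 6, 7 and 5 members were higher (15.2%, 18.7%, 20.8%, 22.1% and 21.1% of measured genes) and 7, 7, 8, 6 and 7 lower (20.5%, 28%, 32.5%, 29.6% and 30.3%).

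Small spans went together with high signal. Of the 57 members above the floor on all arrays, 36 had a mean intensity of 4000 or more, up to 9964 on arrays whose brightest probe set read 9726 to 11195. None of these 36 passed 1.5-fold at any time, and their highest and lowest arrays differed by a median of 1.16-fold. The 83 other genes as bright as that differed by a median of 1.27-fold, and 14 of them, 16.9%, passed 1.5-fold between their extreme arrays. Between 1000 and 4000 the median span was 1.58-fold for 13 members and 1.51-fold for 1099 other genes, and 7 members (53.8%) and 51.5% of the others passed 1.5-fold. Below 1000 it was 1.57-fold for 8 members and 1.77-fold for 9207 others. The part of scanner saturation in the small spans of bright probe sets was not tested. Members with a mean intensity under 4000, 24 of them measured, had medians of 0.018, -0.027, 0.0089, 0.09 and 0.04 at the 5 times. By the 1.5-fold rule 0%, 12.5%, 16.7%, 12.5% and 12.5% of these 24 were higher. Lower were 8.33%, 16.7%, 20.8%, 8.33% and 8.33%. The higher shares from 3 h on and the lower shares up to 6 h were thus not below those of all measured genes. At 1 h the higher share, and at 24 and 48 h the lower share, was below.

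**Figure D2:**
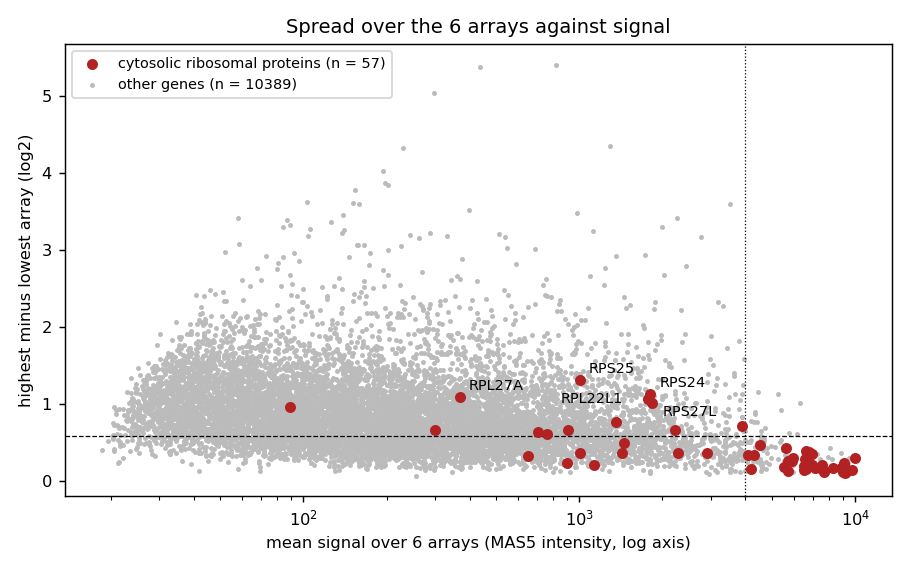
Log2 difference between the highest and the lowest of the 6 arrays against mean MAS5 intensity (log axis), for 57 ribosomal protein genes in red and 10389 other genes in grey, all above the floor on every array. The dashed line marks 1.5-fold and the dotted line an intensity of 4000, to the right of which no red point passes 1.5-fold. Named are the 5 members that differ at least 2-fold between arrays.

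The median of the bright members lay slightly below that of other bright genes at all 5 times. Of the 57 members, 16 had their lowest signal at 1 h, 15 at 6 h and 12 at 48 h, but none at 24 h, where 19 had their highest. A further 17 were highest at 0 h. The summed signal of the members was 5.75%, 5.35%, 5.62%, 5.35%, 5.81% and 5.55% of the sum over all genes at 0, 1, 3, 6, 24 and 48 h. The median log2 ratios of the 36 bright members were -0.09, -0.010, -0.11, 0.016 and -0.07 at 1, 3, 6, 24 and 48 h, against 0.013, 0.09, 0.04, 0.09 and 0.05 for the 83 other bright genes. The quartiles of the bright members were -0.17 and -0.05 at 1 h and -0.21 and -0.05 at 6 h, so most of them shared the small shift at these times.

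The subunits were then taken apart. The 38 measured genes of the large subunit had median log2 ratios of -0.08, -0.013, -0.06, 0.04 and -0.0003 at 1, 3, 6, 24 and 48 h, and the 22 of the small subunit -0.11, -0.05, -0.11, 0.0091 and -0.06. The difference of medians, large minus small, was 0.027 to 0.06 at the 5 times, and it has no test. With probe sets of the _x_at and _s_at kinds left out, since these can bind several related transcripts, it was -0.12 at 3 and 48 h. Of the 57 members, 17 were below their 0 h signal at all 5 times, 7 were above it at all 5, and 45 never passed 1.5-fold. No such counts are given for other genes, so these do not set the members apart. The members that passed all had a mean intensity under 4000. Between extreme arrays, 75% of members and 75.1% of other genes below 1000 passed 1.5-fold. Between 1000 and 4000 the shares were 53.8% and 51.5%, and from 4000 on 0% and 16.9%.

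**Figure D3:**
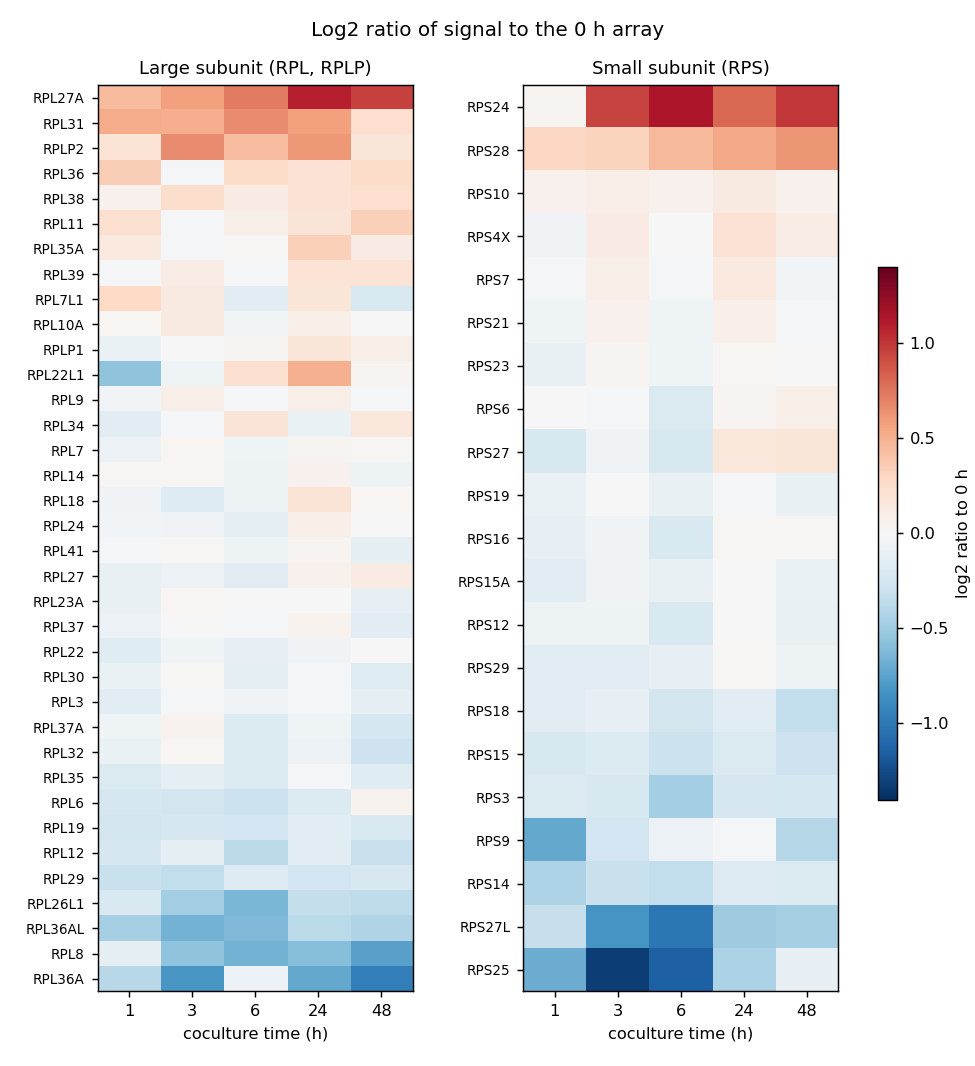
Log2 ratio of signal to the 0 h array at 1, 3, 6, 24 and 48 h for the 57 members above the floor on all arrays, large subunit left and small subunit right, ordered by the mean ratio. Most rows are pale, and the dark rows at the ends include RPS24, RPL27A and RPL31 on the higher side and RPS25, RPS27L, RPL36A and RPL8 on the lower side.

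RPS24, a small-subunit protein that is mutated in some families with Diamond-Blackfan anaemia, was higher from 3 h on. Its intensity was 1097, 1125, 2106, 2407, 1920 and 2182 at 0, 1, 3, 6, 24 and 48 h. The 4 arrays from 3 h on thus lay well above the 0 and 1 h arrays, with the largest ratio, 2.19-fold, at 6 h. A run of 16 pyrimidines spans the annotated transcript start of RPS24. Its second probe set, at 267 at 0 h and 481 at 6 h, had log2 ratios of 0.52, 0.85 and 0.19 at 3, 6 and 24 h but -0.45 at 48 h, where the probe set used had 0.99. RPS24 mRNA is known to be spliced in several ways at its 3′ end, and which form each probe set reads was not tested.

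RPL27A of the large subunit was the member with the highest ratio at 24 h. Its intensity was 231, 314, 345, 382, 492 and 450 at 0, 1, 3, 6, 24 and 48 h. All 5 coculture arrays were above 0 h, and the ratio reached 2.13-fold at 24 h. This probe set is the only one annotated to RPL27A alone. A much brighter probe set, annotated to RPL27A together with the small nucleolar RNA gene SNORA3A and so outside the rule, had intensities of 5862 to 7440 over the 6 arrays. Its log2 ratios were -0.17, -0.13, -0.34, -0.05 and -0.09, so the dim and the bright probe set did not move the same way.

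RPLP2, which with RPLP1 forms the acidic stalk that recruits elongation factors, had a similar discord. Its intensity was 232, 266, 369, 314, 353 and 260.5 at 0, 1, 3, 6, 24 and 48 h, and it was higher by 1.59- and 1.52-fold at 3 and 24 h. A brighter probe set annotated to RPLP2 with SNORA52 had log2 ratios of -0.12 and 0.13 at these times. RPLP1, its partner in the stalk, had intensities of 5227 to 6248 on the 6 arrays and passed 1.5-fold at no time.

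RPL31 and RPS28 were higher by smaller amounts. RPL31 of the large subunit had an intensity of 1649, 2361, 2351, 2605, 2461 and 1942 at 0, 1, 3, 6, 24 and 48 h, and passed the rule at 6 h with 1.58-fold. Its other probe sets had log2 ratios of 0.09 and -0.05 at that time, where the one used had 0.66. RPS28, a small-subunit protein, had its lowest intensity, 586, at 0 h and its highest, 900.0, at 48 h, where it was 1.54-fold higher. The values between were 714, 729, 804 and 847 at 1, 3, 6 and 24 h. Its second probe set above the floor read 0.75 and -0.10 (log2 ratio) at 6 and 48 h.

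RPS25 had the lowest ratio of any member at any time, and by 48 h it was near its 0 h signal again. This small-subunit protein is known for its need in initiation at some viral internal ribosome entry sites. Its intensity was 1459, 901, 587, 659, 1069 and 1346 at 0, 1, 3, 6, 24 and 48 h. It was lower by 1.62-, 2.49- and 2.21-fold at 1, 3 and 6 h, and at 48 h the log2 ratio was -0.12. RPS25 has 1 probe set, so no second reading of this course exists among these values. A run of 10 pyrimidines spans its annotated transcript start, partly before it, and a link of the run to this course was not tested.

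RPS27L, a paralog of RPS27 that p53 is known to induce, was lower at 3 and 6 h. Its intensity was 2561, 2044, 1446, 1269, 1816 and 1862 at 0, 1, 3, 6, 24 and 48 h. All 5 coculture arrays were below 0 h, with the lowest at 6 h, 2.02-fold lower. Its other probe sets, which were dimmer, had log2 ratios of 0.18 and -0.07 at 3 h and -0.20 and -0.21 at 6 h. At 24 h they read 0.51 and -0.29 and at 48 h 0.18 and 0.37, so the lower signal at those times rests on the probe set used. At its transcript start RPS27L has a run of only 2 pyrimidines.

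**Figure D4:**
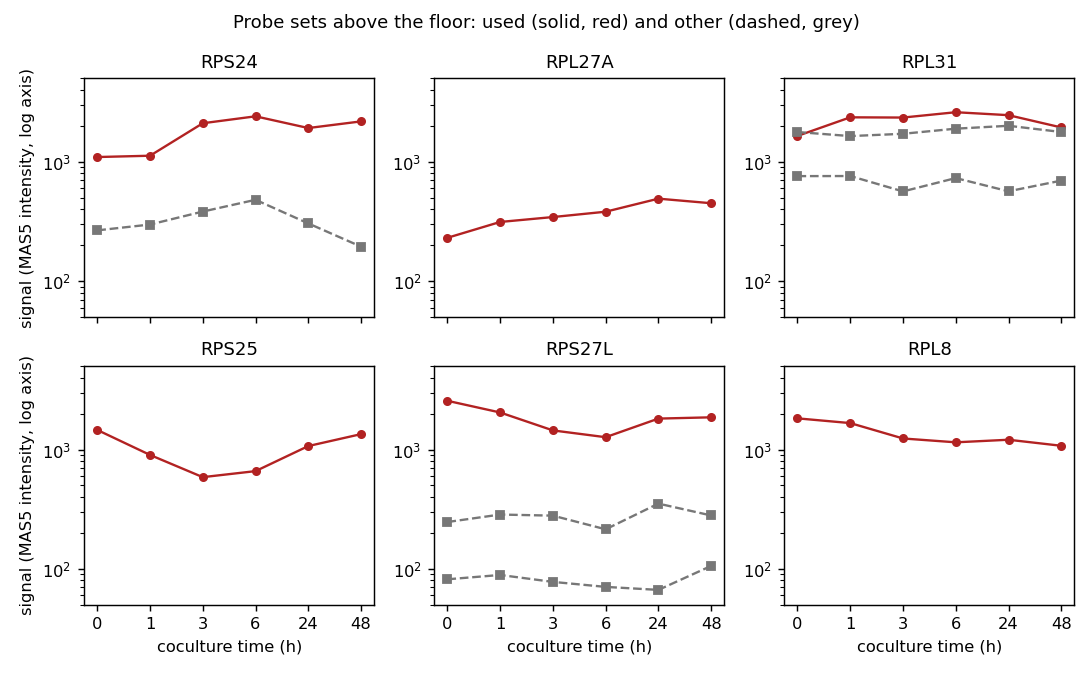
MAS5 intensity (log axis) at 0, 1, 3, 6, 24 and 48 h of the single-symbol probe sets above the floor on all arrays, for RPS24, RPL27A and RPL31 (top) and RPS25, RPS27L and RPL8 (bottom). Solid red lines are the probe sets used, dashed grey lines the others. The dashed lines of RPL31 and RPS27L are flatter than the solid ones.

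The other members on the lower side had smaller changes. RPL8, which lies near the peptidyl transferase centre of the large subunit, had an intensity of 1825, 1665, 1238, 1149, 1208 and 1075 at 0, 1, 3, 6, 24 and 48 h. It was lower by 1.59-, 1.51- and 1.70-fold at 6, 24 and 48 h, with a single probe set. RPL26L1, the paralog of RPL26, had 886 at 0 h and 570 at 6 h, 1.55-fold lower, and lay below 0 h at all 5 times. RPS9, a small-subunit protein that helps to keep decoding accurate, passed the rule at 1 h, with an intensity of 2766 against 4531 at 0 h. It was below 0 h at all 5 times, with log2 ratios of -0.71, -0.27, -0.08, -0.024 and -0.39. A dimmer probe set of RPS9 had a log2 ratio of 0.14 at 1 h, where the one used had -0.71.

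RPL36A and RPL36AL encode nearly the same large-subunit protein. RPL36AL had an intensity of 1203, 870, 760, 782, 929 and 901 at 0, 1, 3, 6, 24 and 48 h, and was lower by 1.58- and 1.54-fold at 3 and 6 h. RPL36A was dim, with 122, 93.1, 69.0, 115, 74.1 and 62.3 in the same order, and was 1.96-fold lower at 48 h. A brighter probe set annotated to RPL36A and its readthrough gene with HNRNPH2 read 0.39 and -0.00026 (log2 ratio) at 1 and 48 h. Probe sets may not separate such near-identical copies.

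Of 28 calls at 1.5-fold over the 5 times, 13 were higher and 15 lower, and they came from 14 genes, all with a mean intensity under 4000. Of the 24 measured members under 4000, 16.7% were higher and 20.8% lower at 6 h, beside 11.3% and 19.1% of all measured genes. At 24 and 48 h 8.33% of the 24 were lower, beside 17.2% and 17.5%. In 17 calls the gene had only 1 probe set. In 9 calls at least 2 probe sets were above the floor on all arrays, and in 4 of these they all moved the same way. For 2 calls, those of RPL10L at 3 h and of the Y-linked RPS4Y1 at 6 h, the 0 h array was under the floor.

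The members with the smallest spans on the probe set used were bright. RPS19, the gene most often mutated in Diamond-Blackfan anaemia, had intensities of 9563, 8987, 9515, 8926, 9432 and 8877 at 0, 1, 3, 6, 24 and 48 h, a span of 1.08-fold. Its second bright probe set read 8307, 7361, 5927, 7685, 7103 and 6319 at these times, with a log2 ratio of -0.49 at 3 h, and so was less even. RPL7 and RPL9 of the large subunit and RPS21 of the small one each spanned 1.09-fold, and RPS23, at the decoding centre, spanned 1.11-fold. Dimmer probe sets moved more here too, with log2 ratios at 48 h of -0.45 for RPS21 and at 3 h of 1.09 for RPS23. A small span therefore holds for the probe set used and not for each reading of the gene. The span was under 0.32 on the log2 scale for 31 of the 57 members and at least 2-fold for 5.

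Of the members with described roles outside the ribosome, RPS27L, given above, passed 1.5-fold at 3 and 6 h. Those that follow here, and RPS14, did not pass it on the probe set used. RPS3 and RPS14 had the widest spans of the 36 bright members. RPS3, which can join the p65 subunit of NF-kB and guide it to target promoters, had an intensity of 5289, 4593, 4522, 3809, 4477 and 4471 at 0, 1, 3, 6, 24 and 48 h. All 5 coculture arrays were below 0 h, but the largest difference, 1.39-fold at 6 h, did not pass the rule. RPL11, which binds and inhibits MDM2 when ribosome assembly fails, had 2064 at 0 h and 2605 at 48 h, 1.26-fold higher. RPL22, which binds a small RNA of Epstein-Barr virus, spanned 5109 at 1 h to 5789 at 48 h. For RPS6, the substrate of S6 kinases, the probe sets disagreed. The one used spanned 5764 at 6 h to 7055 at 48 h, with log2 ratios of -0.0052, -0.013, -0.21, 0.04 and 0.09 at the 5 times. The next brightest, at 3724 at 0 h, had -0.57, -0.52, -0.63, -0.56 and -0.55, and one at 1903 at 0 h had -0.55, -0.40, -0.64, -0.82 and -0.98. Both were thus below 0 h at all 5 times, and which of the 3 readings follows RPS6 mRNA was not tested. RPS14, whose loss underlies the anaemia of the 5q- syndrome, was 1.35-fold lower at 1 h, with 4884 against 6611 at 0 h, short of the rule.

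Among the paralog pairs, the paralog had a wider span than its partner in 3 of the 4 pairs above the floor on all arrays. In these 3 pairs the paralog was also the dimmer gene. Mean intensities were 1833, 1770 and 1457 for RPS27L, RPL22L1 and RPL7L1, and 6621, 5521 and 7732 for RPS27, RPL22 and RPL7. The part of signal level in the wider spans was not tested. RPS27L differed from RPS27 by log2 ratios of -0.10, -0.78, -0.79, -0.65 and -0.63 at 1, 3, 6, 24 and 48 h, where RPS27 itself lay between -0.22 and 0.17. On the dimmer probe sets of RPS27L given above, most ratios at 24 and 48 h were above 0. RPL22L1, the paralog of RPL22 with which it shares a regulatory loop, had intensities of 1700, 1147, 1632, 1990, 2402 and 1748 at 0, 1, 3, 6, 24 and 48 h. It was lowest at 1 h and highest at 24 h, a span of 2.09-fold, although it passed 1.5-fold against 0 h at no time. Against RPL22 the difference was -0.39 at 1 h and 0.54 at 24 h. RPL7L1 differed from RPL7 by 0.37 at 1 h and -0.23 at 48 h. RPL36AL differed from RPL36A by -0.53 at 6 h and 0.55 at 48 h. In this pair the dim RPL36A had the wider span, 1.96-fold against 1.58-fold, although RPL36AL lay further from 0 h at 1 and 6 h. RPL3L, a muscle form of RPL3, was under the floor on each array. RPL39L and RPL10L, known from testis, were above it on 1 and 2 arrays, at most at 20.3 and 25.4.

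**Figure D5:**
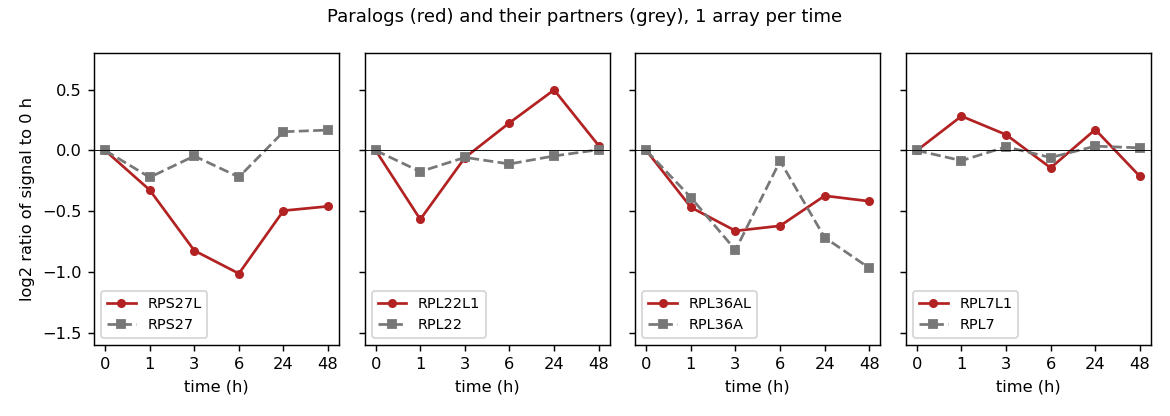
Log2 ratio of signal to 0 h at 0, 1, 3, 6, 24 and 48 h for the paralogs RPS27L, RPL22L1, RPL36AL and RPL7L1 (solid red) and their partners RPS27, RPL22, RPL36A and RPL7 (dashed grey), 1 array per time. RPS27L is below RPS27 at all 5 coculture times, and RPL22L1 stands at -0.57 at 1 h and 0.50 at 24 h.

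Ratios were then set beside the pyrimidine run at the transcript start. The 38 with it that were above the floor on all arrays had median log2 ratios of -0.07, -0.016, -0.07, 0.05 and -0.0057 at the 5 times, and the 13 with a shorter one -0.16, -0.08, -0.15, -0.03 and -0.14. Of the members above the floor on all arrays, RPS24 had the highest and RPS25 the lowest ratio, and both have the run.

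Genes of mitochondrial ribosomal proteins, which form a separate ribosome and are named alike, had medians below 0 at each time, while the cytosolic medians stayed near 0. Their 75 measured genes had medians of -0.28, -0.51, -0.64, -0.38 and -0.35 at 1, 3, 6, 24 and 48 h, with 15, 29, 43, 25 and 24 lower and 2, 0, 0, 0 and 1 higher. MRPS26 had 710 at 6 h against 3433 at 0 h, 4.83-fold lower, and MRPL11 133 against 673, 5.06-fold lower. Of all measured genes 19.1% were lower at 6 h, where the shares were 57.3% of these and 8.33% of the cytosolic ones. The ACTB 3′ to 5′ ratio was lowest at 6 h (17.99), where the mitochondrial median was lowest too, and its part was not tested. With 1 array per time the difference between both groups has no test.

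Other genes of the translation machinery whose mRNAs are known or held to carry a TOP tract, elongation and initiation factors among them, had medians near 0 on the probe sets used. The 22 of 26 with a probe set of their own had medians of -0.07, -0.025, -0.07, -0.05 and -0.10, with 1, 0, 0, 1 and 3 higher and 1, 1, 0, 0 and 1 lower. With probe sets of the _x_at and _s_at kinds left out, the median at 24 h was 0.23. EEF2, the translocation factor, was the one that moved furthest, with 3005 at 0 h and 4224, 4434, 4343, 4722 and 5135 at 1, 3, 6, 24 and 48 h, 1.71-fold higher at 48 h. FAU, whose product is cut to release the small-subunit protein eS30, had 2229 at 0 h and 1360 at 3 h, 1.64-fold lower. EIF4A2 was dim, with 28.4 at 1 h against 16.98 at 0 h, and under the floor at 3, 6 and 24 h.

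Ribosome biogenesis factors, which make and process ribosomal RNA and assemble the subunits, spread more widely. The 50 measured genes of 55 had medians of -0.04, -0.03, 0.11, 0.28 and -0.06 at the 5 times. Higher were 4, 4, 10, 12 and 5, and lower 5, 5, 6, 5 and 6. At 24 h the share that was higher, 24%, lay above the 12% of all measured genes. POLR1A, the largest subunit of RNA polymerase I, had 15.9 at 0 h, under the floor, and 52.97 at 24 h, at least 3.26-fold higher. NOP10, a part of the particles that modify ribosomal RNA, was 2.43-fold lower at 6 h, with 162 against 395 at 0 h. IMP3, a processing factor of the small subunit, was 2.49-fold lower at 48 h. DDX21, a nucleolar helicase chosen after its values were seen, had 5161 at 24 h against 2163 at 0 h.

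Regulators of ribosomal protein synthesis had medians of 0.11, 0.11, 0.19, 0.27 and 0.24 over 29 measured genes of 31. Higher were 6, 7, 9, 3 and 5, and lower 2, 2, 2, 3 and 3. Set against 1 h in place of 0 h, the list read -0.12 at 24 h and -0.018 at 48 h, so its direction at these times depends on the 0 h array. At 6 h the higher share was 31.0%, beside 11.3% of all measured genes. The list pools genes that act against each other, such as MYC and MXD1. Its medians and shares therefore give no direction for ribosomal protein synthesis. MYC, which drives ribosome synthesis, had an intensity of 611, 798, 1255, 1760, 861 and 437 at 0, 1, 3, 6, 24 and 48 h. It was thus highest at 6 h, 2.88-fold, a time at which the ribosomal protein median was -0.08. MXD1, which competes with MYC for its partner MAX, had 188 at 0 h and 666, 632, 520 and 483 at 3, 6, 24 and 48 h, with a ratio of 3.55-fold at 3 h. AKIRIN2, a nuclear factor, was 2.58-fold lower at 48 h.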

How the data were processed

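Biotin-labelled cRNA from 4 µg of total RNA was hybridised to 1 array per time, per the labels' protocols. The deposited values are MAS5 signal intensities per probe set on a linear scale; the submitters' processing notes name MAS5, without a version or scaling target. MAS5 scales each array, so RNA per cell is not measured. No further scaling was applied. Intensities under 16.2, the 50th percentile of all values, were set to that floor, and log2 ratios to the 0 h array were taken. Of 54675 probe sets, 41097 carried 1 symbol, 1801 several and 11777 none; 41043 identifiers of the first kind were found in RefSeq (GRCh38.p14). The brightest probe set, by mean log2 signal, stood for its gene. A gene was measured if at least 1 array was above the floor, and called at 1.5-fold. With 1 array per time there is no test, and precision is limited by the number of arrays. The call rule was run on simulated data with planted changes larger than 1.5-fold, a check of the code that gives no rate of false calls. Python 3.11.15, numpy 2.4.6 and pandas 2.3.3 were used. Named genes were the 3 largest rises and falls at each time, members called at 2 or more times, paralog pairs, stalk genes, members with roles outside the ribosome and up to 3 genes of each other list, 40 in all, part of which is printed. The members and lists were chosen with earlier results of these data known. Alternatives covered scaling, floor, probe set, baseline, size rule and membership.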

Additional observations from a re-analysis of the deposited data

How the results depend on the processing

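No paired analysis was possible because each time has 1 array. Replicates could not be left out for the same reason. These values show the effect of processing, of the baseline and of the choice of genes, and not that of replicates. The median log2 ratio of the members stayed within -0.14 to 0.018, -0.13 to 0.07, -0.13 to 0.0089, -0.08 to 0.10 and -0.11 to 0.04 at the 5 times over 13 or 14 alternatives. The sign of the median changed between alternatives at each time, so no direction is given for the group. At 1 and 6 h the upper ends, 0.018 and 0.0089, are the medians of the members with a mean intensity under 4000. There the upper end thus comes from a smaller set of genes, without the bright members, and not from other processing. Counts of called members are small and moved more. With 2-fold in place of 1.5-fold the counts that moved were 0, 2, 1 and 0 higher at 3, 6, 24 and 48 h, and 0, 1, 2, 0 and 0 lower at 1, 3, 6, 24 and 48 h, and with a log2 ratio of 0.32 they were 4, 5, 7 and 5 higher at 1, 3, 24 and 48 h and 7, 7, 8, 6 and 7 lower. With the 1 h array as the baseline, 1, 1, 0 and 1 members were lower at 3, 6, 24 and 48 h. On that baseline the mitochondrial ribosomal median was -0.30, -0.37, -0.12 and -0.11, the regulator median -0.12 at 24 h and -0.018 at 48 h, IMP3 0.45 at 3 h and 0.058 at 24 h, and POLR1A -0.40 at 3 h and -0.067 at 6 h. Leaving out probe sets of the _x_at and _s_at kinds, 0, 2 and 2 members were lower at 1, 3 and 6 h and 1 and 0 higher at 24 and 48 h. The subunit difference was then -0.12 at 3 and 48 h, the mitochondrial median -0.48 at 6 h and the median of other TOP genes 0.23 at 24 h. RPLP2 was then -0.29 at 3 and 24 h, RPL31 -0.054 at 6 h, RPS24 -0.45 and RPS28 -0.10 at 48 h. Without _x_at probe sets alone, 1 member was higher and 1 lower at 1 h, and 5 higher at 24 h. A common median of genes above the floor gave 3 lower at 6 h and 1 at 24 h. A floor at the 30th percentile gave 2 higher at 1 h and 5 at 48 h, and a pseudocount, or the median over probe sets, 1 higher at 1 h. Without minor paralogs and Y-linked genes, 2 were lower at 3 and at 6 h. Of the alternatives chosen after seeing the data, adding 14 genes read only by probe sets of several symbols gave 2, 5 and 5 higher at 1, 3 and 24 h. Allowing such probe sets for the members gave 1 higher and 1 lower at 24 h and 1 lower at 48 h. It also gave RPL36A 0.036 at 3 h and 0.19 at 24 h, RPLP2 -0.12 at 3 h, and RPL27A -0.34, -0.048 and -0.091 at 6, 24 and 48 h. The cause was not tested for any of these moves.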
